A study of Mus musculus with 8 samples.

Results

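Carboxylesterases are serine hydrolases of the endoplasmic reticulum that split ester, amide and thioester bonds. In liver they clear ester drugs and environmental esters, activate prodrugs, and release fatty acids from stored neutral lipid, part of which is repackaged into very low density lipoprotein (VLDL). Mice carry many more of these genes than humans do, in tandem arrays of paralogs, so that several closely related enzymes share the work of a single human gene.

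The 10 carboxylesterase genes described here are Ces1b, Ces1c, Ces1d, Ces1e, Ces1f, Ces1g, Ces2a, Ces2c, Ces3a and Ces3b, found by their symbols among the 52636 genes of the files, which list 20 Ces genes in all. They were measured by RNA sequencing of liver from C57BL/6 mice at 8 weeks. Both genotypes carried floxed alleles of Ctcf, which encodes a zinc finger protein that helps fold chromatin into loops: 4 libraries were Ctcf fl/fl Albcre- (WT) and 4 were Ctcf fl/fl Albcre+ (cKO). The albumin promoter that drives Cre acts in hepatocytes, and liver cells in which it does not act keep the floxed gene. There were no libraries with Cre on unfloxed Ctcf, so the deletion and Cre itself cannot be told apart. The question put to these genes was which of them differed in transcript level when Ctcf was deleted in hepatocytes.

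Library totals ran from 43.9 to 50.4 M estimated counts in WT and from 50.3 to 57.3 M in cKO. The 10 genes took 0.622 to 0.755% of the counts in WT and 0.524 to 0.572% in cKO. Ctcf itself fell by 0.44 on the log2 scale (16.5 ± 0.410 against 12.2 ± 0.946 CPM, counts scaled to library size; mean ± SD, n = 4 each; edgeR adjusted p = 0.00202), a call that was lost on the scale of TPM, transcript abundance scaled to length and to the same total in each library. The summed level of 7 hepatocyte markers overlapped between genotypes, with 77994 to 106300 CPM for the WT libraries, 90502 to 103401 CPM for the cKO libraries, and most of that sum is Alb (43677 to 71163 CPM in WT and 61378 to 73943 CPM in cKO). Of the 7, Cps1 rose (log2 change 0.58), Ttr (-0.68), Serpina1c (-0.62) and Apoa1 (-0.35) fell without overlap, and Alb, Tat and Pck1 were not called. Of 23 markers of other liver cells 10 were higher and 0 lower (15.3% of all tested genes were higher), and all 23 passed the filter on low counts. Their summed level ran from 318 to 400 CPM in WT and from 490 to 565 CPM in cKO. The 5 stellate cell and fibroblast markers all rose, from a sum of 86.0 to 96.6 CPM to one of 205 to 276 CPM. Most of that sum is Dcn (mean 65.3 CPM for WT, 194 for cKO). Of 5 endothelial markers 0 were called, with overlapping sums (WT 57.1 to 103 CPM, cKO 77.3 to 120 CPM). Of 5 macrophage markers 1 rose, and their sums overlapped too (WT 152.5 to 227 CPM, cKO 133 to 211 CPM). Of 4 cholangiocyte and 4 lymphocyte markers 2 each rose, with sums of at most 10.6 CPM in any library. The part of this shift in markers in the results was not tested. In whole liver fewer hepatocytes cannot be told apart from less RNA in each.

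The genes lie on chromosome 8 in 2 arrays (RefSeq positions on GRCm38, or mm10). The Ces1 array, chr8:93020214-93535879, spans 516 kb and holds 9 annotated Ces genes. The Ces2 and Ces3 array, chr8:104734003-105150109, starts 11.2 Mb further on, spans 416 kb and holds 11. Ctcf lies 486 kb beyond its end.

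RefSeq promoter sequence (GRCm38.p6) was at hand for 7 of the 10 genes. The neighbours Ces1b and Ces1c had the most alike promoters among the 15 Ces genes with an entry, with 208 identical bases in an alignment of the 250 bases before their starts (83.2%). They are shown because Ces1b is among the genes that fell in cKO and Ces1c is not, as described further on. Ces1b has a further annotated start within its 250 bases, so only the 173 bases before both of its starts are printed. Beside them are the 163 bases of Ces1c aligned with them, which stop short of the Ces1c start. The stretch of Ces1b is chr8:93080018-93080190 and that of Ces1c chr8:93131371-93131533, both on the minus strand. Both are printed 5′ to 3′, with capitals marking runs of at least 10 bases that are identical in both.
Ces1b: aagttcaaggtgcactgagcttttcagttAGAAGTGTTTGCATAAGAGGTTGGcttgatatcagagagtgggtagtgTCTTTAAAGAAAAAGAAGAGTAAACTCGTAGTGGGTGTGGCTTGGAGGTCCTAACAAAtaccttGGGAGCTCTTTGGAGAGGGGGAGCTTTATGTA
Ces1c: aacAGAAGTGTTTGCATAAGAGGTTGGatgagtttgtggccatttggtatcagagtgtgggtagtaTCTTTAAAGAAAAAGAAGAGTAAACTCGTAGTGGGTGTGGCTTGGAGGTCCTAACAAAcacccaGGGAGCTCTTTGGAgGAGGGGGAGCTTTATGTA
The longest identical run in the printed stretches was 58 bases. The first run in capitals holds a match to the FOXA motif TGTTTGC and, overlapping it, one to the C/EBP motif TTGCNNAA, in both genes. On both strands of the 250 bases before the start, TGTTTGC was found in 4.3% and TTGCNNAA in 9.56% of 32851 mouse promoters. In this window the TATA motif TATAAA, present in 12.4% of promoters, was found 30 bases before the start of Ces3b and, on the other strand, 26 bases before that of Ces1g. The short CTCF motif AGNNGGC was found before Ces1g, Ces2a, Ces2c and Ces3b, and in 52.5% of all promoters. A match is a description of letters and not a measured site.

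Ces3a and Ces1c were the most abundant carboxylesterase transcripts. Levels between genes are given in TPM, which accounts for length, and the test between genotypes ran on counts. In WT the order by mean TPM was Ces3a (1520 ± 97.6), Ces1c (1474 ± 268), Ces1d (438 ± 124), Ces1f (308 ± 37.8), Ces2a (235 ± 35.5), Ces3b (168 ± 11.6), Ces1b (89.6 ± 14.0), Ces1e (74.7 ± 16.5), Ces1g (39.1 ± 13.7) and Ces2c (14.8 ± 7.05; mean ± SD, n = 4). The libraries overlapped between Ces3a and Ces1c, between Ces1d and Ces1f, and between Ces1b and Ces1e, and the other neighbours in that order were separate. In cKO the order was Ces1c (1508 ± 117), Ces3a (859 ± 63.6), Ces1d (559 ± 157), Ces2a (219 ± 47.4), Ces1f (190 ± 18.2), Ces3b (129 ± 19.1), Ces1e (90.3 ± 7.56), Ces1b (57.1 ± 6.04), Ces1g (55.5 ± 8.63) and Ces2c (20.7 ± 3.55). There, Ces2a overlapped Ces1f and Ces1b overlapped Ces1g. Ces1c and Ces3a led in both genotypes, overlapping in WT and separate in cKO.

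**Figure D1:**
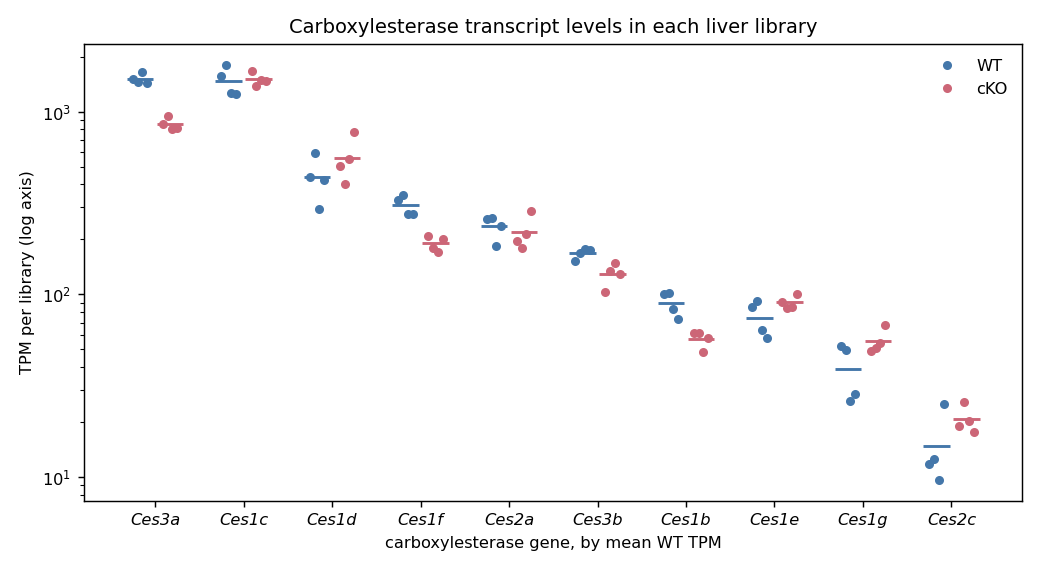
TPM of each carboxylesterase gene in each library on a log axis, with WT in blue, cKO in red and a bar at the mean of 4 libraries. The genotypes do not overlap for Ces3a, Ces1f, Ces3b and Ces1b, and they overlap for the other 6 genes.

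Of the 10 genes 4 fell in cKO (40%), 0 rose and 6 did not pass the test (edgeR quasi-likelihood test, Benjamini-Hochberg adjusted p under 0.05 over 15562 tested genes). Over all tested genes 15.1% were lower, 15.3% were higher and 30.4% were called in either direction. The median log2 change was -0.21 for the 10 genes and -0.01 for all tested genes. All 10 genes passed the filter on low counts. The 4 genes that fell had genotypes that did not overlap in CPM, as did 30.6% of all tested genes.

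Ces3a and Ces3b form the Ces3 class, microsomal esterases of the mouse liver. Ces3a was at 1517, 1461, 1659 and 1444 TPM in the WT libraries and at 861, 948.5, 808 and 819 TPM in the cKO libraries. Every cKO library was below every WT library, and the libraries of each genotype lay close together. Ces3a fell by 0.96 on the log2 scale (SE 0.09, edgeR adjusted p = 5.8e-05), to 51.3% of the WT level on counts. Among all tested genes 1.97% were called with a fall at least as large. Ces3b was at 152, 168, 177 and 176 TPM in WT and at 102.5, 135, 148 and 129 TPM in cKO. The genotypes were separate here too, with the highest cKO library just under the lowest WT library. Ces3b fell by 0.56 (SE 0.10, adjusted p = 0.00238), to 67.6% of WT on counts, and 5.53% of tested genes were called with a fall at least as large.

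The Ces3 pair share sequence, so their split depends on how the quantification divided reads. Of all 50-base windows in the Ces3a transcript 30.9% also occur in that of Ces3b, and at 100 bases 9.08% do (GENCODE M1 transcripts). Reads moved between them stay in the sum of their counts, but not exactly in that of TPM, as the transcripts differ in length (2049 and 2403 bases). In TPM the sum was at 1669, 1629, 1836 and 1620 in WT and at 964, 1084, 956 and 949 in cKO. The sum was lower in every cKO library, at 58.5% of WT on the TPM scale and 53.3% on the CPM scale. The ratio of Ces3a to Ces3b in TPM was 9.07 ± 0.785 in WT and 6.80 ± 1.24 in cKO, with 1 cKO library inside the WT range.

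In the Ces1 class Ces1f and Ces1b fell. Ces1f, a hydrolase of neutral lipid related to the triacylglycerol hydrolase Ces1d, was at 328, 352, 276 and 277 TPM in WT and at 209, 179.9, 170.1 and 201 TPM in cKO. The highest cKO library was well under the lowest WT library. Ces1f fell by 0.85 on the log2 scale (SE 0.10, edgeR adjusted p = 0.000243), to 55.3% of WT on counts. Ces1b was at 100.5, 102, 83.3 and 72.9 TPM in WT and at 61.4, 61.1, 48.5 and 57.4 TPM in cKO. The genotypes did not overlap, and the 4 WT libraries spread more widely than the 4 cKO libraries. Ces1b fell by 0.83 (SE 0.12, adjusted p = 0.000847), to 56.2% of WT on counts.

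The other 4 Ces1 genes did not pass the test. Ces1c encodes the plasma carboxylesterase, which mouse liver secretes into blood and which breaks down many ester drugs there. It was at 1568, 1810, 1274 and 1244 TPM in WT and at 1671, 1392, 1490 and 1481 TPM in cKO. WT libraries stood on both sides of the cKO libraries. The log2 change of Ces1c was -0.15 (95% interval -0.41 to 0.12, edgeR adjusted p = 0.381), and on the TPM scale it had the opposite sign, 0.048. Ces1d, the triacylglycerol hydrolase that draws on lipid stores for VLDL assembly, was at 440.5, 596, 294 and 421 TPM in WT and at 506, 403, 551 and 775 TPM in cKO. The genotypes overlapped, with the lowest library in WT and the highest in cKO, and the change was 0.20 (interval -0.35 to 0.74, adjusted p = 0.562).

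Ces1e, also called egasyn, holds part of the cell's beta-glucuronidase in the endoplasmic reticulum. It was at 85.1, 92.2, 63.5 and 57.9 TPM in WT and at 90.9, 84.5, 85.1 and 100.8 TPM in cKO, with overlap and a log2 change of 0.10 (interval -0.20 to 0.40, edgeR adjusted p = 0.611). Without WT replicate 4 the sign of that change turned, to -0.0038. Gusb, the gene of beta-glucuronidase itself, rose by 0.82 (SE 0.14, adjusted p = 0.00295), from 24.2 ± 4.80 to 42.6 ± 6.46 CPM (mean ± SD, n = 4 each). The lowest cKO library of Gusb was above the highest WT library. Ces1g, which in mice bears on hepatic lipid synthesis and blood lipid, was at 52.1, 49.6, 26.2 and 28.4 TPM in WT and at 48.8, 51.1, 54.1 and 68.1 TPM in cKO. A pair of WT libraries lay among the cKO libraries and the other pair far under them, and the change was 0.32 (interval -0.24 to 0.88, adjusted p = 0.349).

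The total of the Ces1 class overlapped between genotypes on both scales. The 6 genes summed to 2574, 3002, 2018 and 2101 TPM in WT and to 2587, 2171, 2399 and 2684 TPM in cKO. High and low libraries occurred in both genotypes, and the cKO mean was 101.5% of WT in TPM and 90.3% in CPM. Within the class, the ratio of Ces1c to Ces1b was 16.4 ± 1.19 in WT and 26.6 ± 3.31 in cKO, without overlap (TPM; mean ± SD, n = 4). The ratio of Ces1d to Ces1f was 1.41 ± 0.269 in WT and 2.94 ± 0.749 in cKO, also without overlap. These ratios were chosen after their values were seen and were not tested. Ces1b shares 10.8% of its 50-base windows with other Ces genes and Ces1c 13.4%, mostly with each other. Their sum was 1564 ± 280 TPM in WT and 1566 ± 118 TPM in cKO. On the CPM scale it was 2472 ± 422 in WT and 2180 ± 187 in cKO, at 88.2% of WT. Ces1c makes up most of that sum, which therefore cannot show whether reads moved between them. Ces1f shares 0.533%, the smallest share of the 10 genes.

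Ces2 enzymes hydrolyse acylglycerols and, as the human CES2 enzyme does, ester prodrugs. Ces2a was at 257, 262, 184.5 and 238 TPM in WT and at 196.5, 179, 214 and 287 TPM in cKO. The highest library was cKO replicate 4, and the other cKO libraries lay low in the WT range or under it. The log2 change was -0.28 (95% interval -0.59 to 0.03, edgeR adjusted p = 0.16), and without cKO replicate 4 Ces2a was called lower, at -0.42 (adjusted p = 0.0242). Ces2c was at 11.7, 12.5, 9.62 and 25.2 TPM in WT and at 19.0, 25.8, 20.4 and 17.7 TPM in cKO. WT replicate 4 lay among the cKO libraries and the other WT libraries lay under all of them. The change was 0.34 (interval -0.42 to 1.10, adjusted p = 0.462), and without WT replicate 4 Ces2c was called higher, at 0.73 (adjusted p = 0.00639). Of its 50-base windows 67.5% also occur in Ces2d-ps, whose own level was 0.15 TPM in WT and 0.11 TPM in cKO, so the sum of both moved little from Ces2c alone (14.9 ± 7.04 and 20.8 ± 3.55 TPM). The Ces2a and Ces2c total was 250.1 ± 37.7 TPM in WT and 239.8 ± 44.8 TPM in cKO, with overlap.

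Together the 10 genes summed to 4512, 4906, 4048 and 3983 TPM in WT and to 3766, 3460, 3590 and 3937 TPM in cKO. The lowest WT library was just above the highest cKO library. The cKO mean was 84.6% of WT in TPM and 75.5% in CPM. Of that sum Ces3a made up 35.2 ± 4.70% in WT and 23.4 ± 2.82% in cKO. Ces1c went from 33.6 ± 2.73% to 40.9 ± 2.80% and Ces1d from 9.94 ± 2.04% to 15.03 ± 3.45%. The Ces1d shares overlapped, with 12.2% in WT replicate 2 and 11.6% in cKO replicate 2. A share of a sum also rises when another part of the sum falls, and neither gene was called. The ratio of Ces1c to Ces3a in TPM was 0.975 ± 0.207 in WT and 1.77 ± 0.206 in cKO, without overlap, so that Ces1c was above Ces3a in each cKO library and in 2 of 4 WT libraries. This ratio was not among the planned results and was not tested, and of the pair only Ces3a was called.

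**Figure D2:**
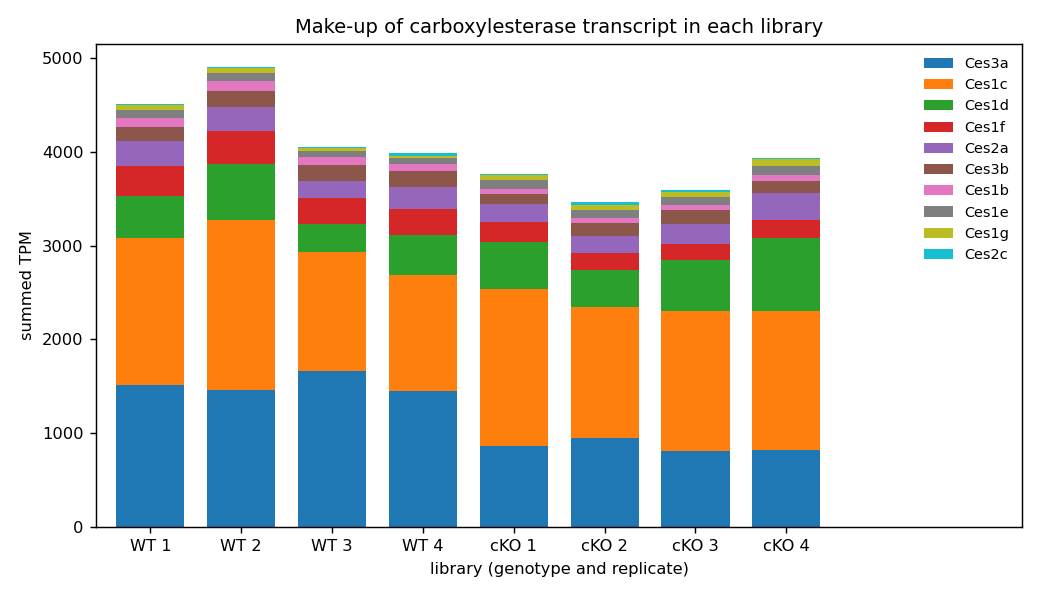
Summed TPM of the 10 carboxylesterase genes in each library, stacked by gene, from 0. The Ces3a share at the base of each bar is about 1444 to 1659 TPM in WT and 808 to 949 TPM in cKO, and the Ces1c share above it stays between 1244 and 1810 TPM in all 8 libraries.

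Of the other 10 Ces genes 5 passed the filter, 2 rose and 1 fell, beside 15.3% higher and 15.1% lower among all tested genes. Ces2e rose by 0.75 on the log2 scale (SE 0.10, edgeR adjusted p = 0.000554), from 42.4, 50.5, 40.4 and 50.9 TPM in WT to 81.8, 84.9, 78.4 and 107 TPM in cKO. Its genotypes were widely separate, opposite in direction to Ces3a in the same array. Ces2g rose by 0.29 (SE 0.07, adjusted p = 0.00889), from 18.8 ± 0.828 to 23.0 ± 1.23 CPM (mean ± SD, n = 4 each), without overlap. Ces1a was near the floor, with 0.390 ± 0.121 CPM in WT against 0.194 ± 0.0514 CPM in cKO, and its fall by 1.01 (adjusted p = 0.0371) lost its call in 10 of 19 alternative analyses, 6 of which left out 1 library other than WT replicate 4 and cKO replicate 1 (adjusted p up to 0.106). Ces2h (0.61, adjusted p = 0.245) and Ces4a (-0.11, adjusted p = 0.867) were not called. Ces2f and Ces5a had no counts in any library, which allows up to 0.0524 to 0.0683 CPM in a library by counting error alone.

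Along the chromosome, called and uncalled genes were interspersed. In the Ces1 array Ces1a and Ces1b fell at one end, the next 3 genes Ces1c, Ces1d and Ces1e were not called, Ces1f fell and Ces1g was not called. In the other array Ces2e and Ces2g rose and Ces3a and Ces3b, further along, fell. Among the 40 nearest tested genes outside the arrays, 10 on each side of each, 4 were higher and 4 lower (20% called, against 30.4% of all tested genes). Of these Mmp2, a matrix metalloproteinase of stromal cells, rose by 1.35 (adjusted p = 0.000469), and Cbfb, next to the Ces2 and Ces3 array, rose by 0.49 (adjusted p = 0.00876). Fto, an RNA demethylase, rose by 0.33 (adjusted p = 0.0195) and was not called without WT replicate 1, 2 or 3 or cKO replicate 4 (adjusted p up to 0.057). The neighbours were nearest in order and not all close by. Fto ends at chr8:91668433 and Sall1, the furthest, at chr8:89044162, while the Ces1 array starts at chr8:93020214. Tk2, the mitochondrial thymidine kinase, fell by 0.39 (adjusted p = 0.00575), and Fbxl8, which encodes an F-box protein, fell by 0.43 (adjusted p = 0.0158), and both lost the call on the TPM scale.

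**Figure D3:**
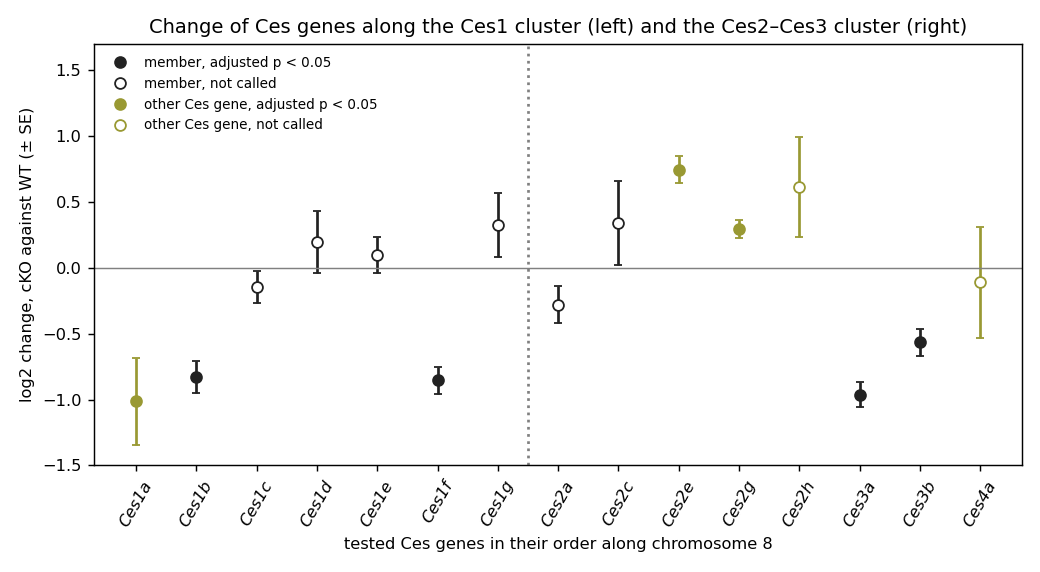
Log2 change with its SE (cKO against WT, 4 libraries each) for the 15 tested Ces genes in their order along chromosome 8, evenly spaced, with filled points for adjusted p under 0.05 and a dotted line between the arrays. The called members Ces1b, Ces1f, Ces3a and Ces3b lie between -0.96 and -0.56, and Ces1a, near the floor, lies lower at -1.01. The called genes above 0 are Ces2e, at 0.75, and Ces2g, at 0.29.

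Other liver hydrolases were compared from lists made by function, with earlier results of these data known. Of 20 genes that act on neutral lipid, 7 rose and 1 fell (40% called), with a median log2 change of 0.25. Mgll, monoacylglycerol lipase, rose by 0.61 (edgeR adjusted p = 0.00224) and Lipa, lysosomal acid lipase, by 0.47 (adjusted p = 0.0028). Abhd2, an acylglycerol lipase, rose by 0.74 (adjusted p = 0.00723), Pnpla2, adipose triglyceride lipase, by 0.39 (adjusted p = 0.0119) and Pnpla8, a phospholipase, by 0.49 (adjusted p = 0.0131). Lipc, hepatic lipase, fell by 0.47 (adjusted p = 0.00486). Abhd4 and Ddhd2 were the other called genes of the list.

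Of 20 hydrolases of esters, epoxides and related bonds, 4 rose and 2 fell (30% called), with a median of 0.07. Bche, butyrylcholinesterase, rose by 0.65 (SE 0.07, edgeR adjusted p = 0.000157), from 92.9 ± 8.76 to 146 ± 1.35 CPM (mean ± SD, n = 4 each). Ppt1, a palmitoyl thioesterase, rose by 0.54 (adjusted p = 0.00235) and Pon3, a lactonase, by 0.26 (adjusted p = 0.0162), the latter not called without WT replicate 3 (adjusted p = 0.0541). Afmid, arylformamidase, fell by 0.63 (adjusted p = 0.00685). Lypla1 (0.29, adjusted p = 0.0416) and Lypla2 (-0.21, adjusted p = 0.0488), which remove fatty acids from lipid and protein, passed narrowly and lost the call in 6 and 16 of 22 alternative analyses. With 1 library left out, Lypla1 was called only without WT replicate 4 or cKO replicate 1 (adjusted p up to 0.121 otherwise) and Lypla2 only without cKO replicate 1 (up to 0.154 otherwise). Beside the 30.4% called among all tested genes, nothing particular to either list was read from these shares.

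Of 14 genes of VLDL assembly and lipid droplets, 4 rose and 0 fell (28.6% called, against 30.4% of all tested genes). Cidec, a droplet fusion protein, was at 6.20, 5.93, 5.06 and 9.61 TPM in WT and at 22.9, 24.4, 49.5 and 35.4 TPM in cKO. Every cKO library was far above every WT library, and Cidec rose by 2.04 (SE 0.30, edgeR adjusted p = 0.00287). Plin2, a droplet coat protein, rose by 0.77 (adjusted p = 0.000517) and Mttp, which loads lipid onto apolipoprotein B, by 0.52 (adjusted p = 0.0126). Sar1b, a coat protein of vesicles leaving the endoplasmic reticulum, rose by 0.30 (adjusted p = 0.0335) and was not called without WT replicate 1, 2 or 3 or cKO replicate 1, 2 or 3 (adjusted p up to 0.0968). Of 11 genes of retention and folding in the endoplasmic reticulum, where carboxylesterases are held by a carboxy-terminal signal, 1 rose (Gusb) and 3 fell (36.4% called, against 30.4% of all tested genes). Pdia6, a disulfide isomerase, fell by 0.59 (adjusted p = 0.00504). Calr, calreticulin, fell by 0.40 (adjusted p = 0.0178) and Pdia3, a further disulfide isomerase, by 0.34 (adjusted p = 0.0255), and both were lost on the TPM scale. Without cKO replicate 3 Calr was not called (adjusted p = 0.0607), nor was Pdia3 without cKO replicate 2, 3 or 4 (adjusted p up to 0.0785). WT replicate 4 was the highest WT library for all 3, and without it the log2 changes were -0.43 for Pdia6, -0.29 for Calr and -0.22 for Pdia3, each still called.

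Of 8 regulators known to bear on carboxylesterase or drug metabolism genes in liver, 3 fell and 0 rose (37.5% called, against 30.4% of all tested genes). Nr1i3, the xenobiotic receptor CAR, was at 684, 738, 601 and 425 TPM in WT and at 406, 316, 416 and 393 TPM in cKO. The genotypes did not overlap, although WT replicate 4 was close to the cKO libraries. Nr1i3 fell by 0.93 (SE 0.16, edgeR adjusted p = 0.00238). Nr1h4, the bile acid receptor FXR, fell by 0.37 (adjusted p = 0.0105) and lost the call on the TPM scale. Hnf4a, a nuclear receptor of hepatocyte identity, fell by 0.25 (adjusted p = 0.0452) and lost the call in 14 of 22 alternative analyses, among them each library left out except WT replicate 1 (adjusted p up to 0.11). Nr1i2, the xenobiotic receptor PXR, had a change of -0.22 (adjusted p = 0.175) and was called only without WT replicate 1, at -0.32 (adjusted p = 0.0269). Cebpa (-0.17, adjusted p = 0.137), Ppara (0.21, adjusted p = 0.139), Stat5b (0.11, adjusted p = 0.255) and Nfe2l2 (0.10, adjusted p = 0.425) were also not called, although the latter 3 were called higher on the TPM scale.

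**Figure D4:**
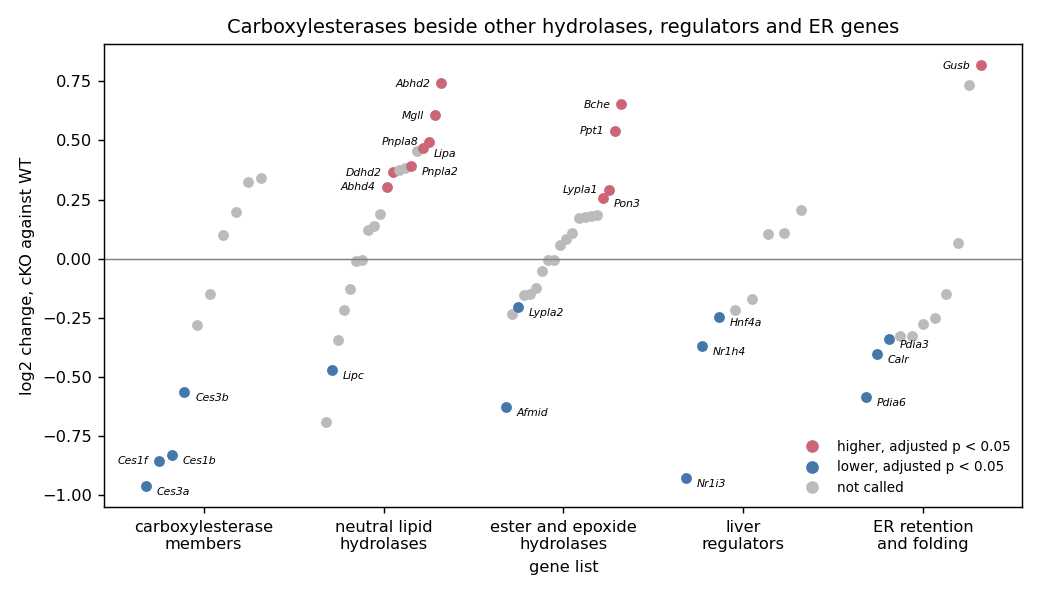
Log2 change (cKO against WT, 4 libraries each) of each tested gene in 5 lists, ordered by value within a list, with red for higher, blue for lower and grey for not called at adjusted p under 0.05. The 4 called carboxylesterases lie at or below -0.56, and 11 of 14 called genes of the 2 hydrolase lists lie above 0. Over all tested genes 2386 of the 4738 called were higher.

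Likeness of pattern was measured over the 8 libraries by the root mean square difference of log2 CPM, each gene centred on its own mean, among 9127 genes of at least 5 CPM. As the centring spans both genotypes, genes nearest to a member have a change between genotypes like its own by construction. Nearest to Ces3a were F11, which encodes a coagulation factor made in liver (difference 0.0903, change -0.91), Kyat1, a kynurenine aminotransferase (0.0904, change -0.91) and Slc17a3, an anion transporter (0.106, change -1.15). Nearest to Ces1c, the carboxylesterase of highest mean TPM over all 8 libraries, were Nfkbil1 (0.0718), 1810058I24Rik (0.0825) and Prlr, the prolactin receptor (0.0993), none of them called between genotypes.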

How the data were processed

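Frozen liver RNA from 4 WT and 4 cKO samples was sequenced with an Illumina TruSeq kit, per the labels' protocols. Per the submitters' processing notes, reads were aligned with STAR 2.5.1 to mm10 and quantified with RSEM. RSEM's version, the strand setting and the annotation are not given in the sources used, so overlapping and antisense genes are uncertain. The authors deposited expected counts, in which reads shared by paralogs are divided between them, with TPM, FPKM (not used) and effective lengths per the file headers.

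Expected counts were rounded. edgeR 4.0.16 (R 4.3.3) kept 15562 genes with filterByExpr by genotype (minimum count 10, total 15), scaled with TMM, and tested cKO against WT with estimateDisp, glmQLFit (robust) and glmQLFTest at an adjusted p under 0.05 (Benjamini-Hochberg). Standard errors come from the F statistic, and 95% intervals from the t quantile of its degrees of freedom. CPM use TMM-scaled totals. TPM were used as deposited. On TPM, limma 3.58.1 was fitted to log2(TPM + 1) and log2(TPM + 0.1) for genes of at least 0.5 TPM in 4 libraries, and the median change of all genes was 0.12 and 0.15 there, against -0.01 on counts. The test was checked on simulated counts. Alternatives were other scalings, filters, DESeq2 1.42.0, limma-voom, an effective length offset, the replicate number as a block and each library left out. The legacy quasi-likelihood form was added after seeing the data. Libraries of a genotype differed by more than sampling noise, with chi-square over degrees of freedom of 28.4 or more. The labels do not say that each sample is a separate mouse, so that the spread behind each p-value may be technical. Counting limits cover counting error only.

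The members and lists were chosen with earlier results of these data known. Named were all members and tested Ces genes; of each list the 5 called genes of smallest p in each direction, with the regulators and Gusb always given (1 gene that this rule names is not reported here); of the neighbours of the arrays at most 5 called genes; and the 3 genes nearest to Ces1c and Ces3a. Figures were drawn with matplotlib 3.10.9.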

Additional observations from a re-analysis of the deposited data

Results flagged for a closer look

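In 7 of 38 groups of 4 libraries tested, the highest or lowest library lay apart from the other 3 by a gap that, as a share of the group's range, passed Dixon's 95% critical value, as chance alone gives in about 1 of 20 groups. In CPM this held for the high Ces1c value of cKO replicate 1 (gap 0.922 of the range), the high Ces1g value of cKO replicate 4 (0.831), the high Ces2c value of WT replicate 4 (0.842), the high Ces3a value of WT replicate 3 (0.901) and the high Ces2h value of WT replicate 1 (0.926). In TPM it held for the low Ces2 total of WT replicate 3 (0.852) and the high Ces3 total of cKO replicate 2 (0.891). Without WT replicate 3 Ces3a remained lower, and without WT replicate 4 Ces2c was called higher.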

How the results depend on the processing

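Ces3a, Ces1f, Ces1b and Ces3b kept their direction and their call in all 22 alternatives, with log2 changes of -1.02 to -0.82, -0.92 to -0.69, -0.92 to -0.63 and -0.62 to -0.39. Leaving out 1 library gave 0 to 1 members higher (1 without WT replicate 4) and 4 to 5 lower, with Ces2c at 0.19 to 0.73, Ces2a at -0.42 to -0.19, Ces1e at -0.0038 to 0.21 and Ces4a at -0.41 to 0.41, above 0 at 0.41, 0.071 and 3.565e-05 without WT replicate 4, cKO replicate 1 and cKO replicate 2. On log2(TPM + 1) and log2(TPM + 0.1) Ces1c turned to 0.048 in both, Prlr to 0.057 and 0.060 and Nfkbil1 to 0.095 and 0.11 (0.018 with library size alone). The Ces3 total had a log2 ratio of -0.91 in CPM against -0.77 in TPM. Over all genes, higher and lower calls were 3624 and 1335 with library size alone, 3223 and 1442 without the 20 most abundant genes in it, 3504 and 818 on log2(TPM + 1), 3474 and 809 on log2(TPM + 0.1), and 1180 and 1048 at adjusted p under 0.01, and without 1 library 1752 to 2541 and 1629 to 2509. Of the 39 other hydrolases 18 and 19 were higher on the TPM scales and 5 at adjusted p under 0.01, and without 1 library 8 to 13 were higher and 2 to 3 lower. The cause of these shifts was not tested. Same-numbered libraries correlated at 0.0417 to 0.0567, under 0.1, after centring within genotype. WT replicates 1, 2 and 3 were nearest the cKO library of their own number, and WT replicate 4 was nearest cKO replicate 2. The labels do not say that the numbers pair samples, and they were not taken as pairs in the main test. With the replicate number as a block 2525 genes were higher and 2416 lower, and no member's call changed. Reads shared among paralogs limit Ces2c, Ces3a and Ces3b most.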

Other observations

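Ppara, the receptor that induces fatty acid oxidation genes, was at 45.9 ± 6.31 TPM in WT and 92.3 ± 18.5 TPM in cKO, while in CPM it was at 33.1 ± 4.66 and 38.2 ± 2.98 (mean ± SD, n = 4 each). In the test on counts it was not called (log2 change 0.21, edgeR adjusted p = 0.139), and with an offset for effective length, which the files give per library, it was called higher (0.82, adjusted p = 0.00147). Why the effective length differed between libraries was not tested.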
